A study of Mus musculus with 4 samples.

Results

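The Ly6C high monocytes of brain and dura mater are the classical monocytes among the CD45+ leukocytes that were sorted and sequenced cell by cell. They were chosen by 17 genes on the deposited scale, the natural log of 1 plus the molecules of a gene per 10000 molecules of a cell. A member had Ly6c2 at 1 or more, Plac8 above 0 and at least 3 of the 5 genes Vcan, Ccr2, F10, Fn1 and Ms4a4c above 0. It had C1qa below 1.5, at most 2 of the 4 macrophage genes Gpnmb, Arg1, Fabp5 and Spp1 at 1.5 or more, and Cd3e, Cd79a, Retnlg, Mpo and Top2a at 0. The rule found 504 cells among 14586 cells that passed the filter on detected genes and mitochondrial share, out of 18969 barcodes. Since these 17 genes chose the cells, their levels are a description and support nothing here.

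The study asked how the dura mater and the brain respond to a photothrombotic injury, in which a light-activated dye closes vessels of the dura, pia and brain. All mice were C57BL/6J and 8 weeks old, and cells were taken on day 3. The 4 libraries, 1 per condition, hold brain and dura of the control group labelled CT and brain and dura of the injured group labelled INJ. The study's methods describe the control as a sham operation. How many mice were pooled in a library, and whether brain and dura came from the same animals, is not given in the sources used here. With 1 library per condition no difference has a replicate check and no p-value is given, so every comparison below is between libraries.

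Ly6C high monocytes leave the bone marrow through the chemokine receptor Ccr2, circulate briefly, and enter injured tissue, where they turn into macrophages or antigen-presenting cells. In the blood some convert into Ly6C low patrolling monocytes under the transcription factor Nr4a1. The dura mater lies against skull marrow and has leaky vessels, whereas the brain behind its barrier holds few such cells until it is injured.

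Ly6C high monocytes were 125 of 3748 kept cells in brain CT, 3.34% with an exact Clopper-Pearson 95% interval of 2.78% to 3.96%. In brain INJ they were 153 of 4601 cells, 3.33% with an interval of 2.83% to 3.88%. They were 124 of 3569 cells in dura CT, 3.47% with an interval of 2.90% to 4.13%, and 102 of 2668 cells in dura INJ, 3.82% with an interval of 3.13% to 4.62%. The intervals of all 4 libraries overlap, and a share depends on every other cell in the sort. The shares moved with the thresholds of the rule. In brain INJ the share was 1.87% with Ly6c2 at 2 or more and 4.46% with Ly6c2 above 0. Retnlg is an abundant neutrophil transcript, and the demand that it be at 0 alone left out 61, 58, 86 and 81 further cells in brain CT, brain INJ, dura CT and dura INJ. With Retnlg below 1.5 instead, the shares were 4.54%, 4.19%, 5.63% and 6.33%, and the dura then stood above the brain.

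Levels are given as CPM, the molecules (UMIs) of a gene summed over the monocytes of a library, per 1000000 molecules of those monocytes. The sums were 1730031 UMIs in brain CT, 2262092 in brain INJ, 1803138 in dura CT and 1775718 in dura INJ. The median monocyte held 14021, 14070, 14163 and 17451 UMIs in that order. Intervals on CPM and on log2 ratios are exact 95% Poisson intervals and cover counting error only, not the spread between mice.

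The levels of the genes that chose the cells are given as a description. Ly6c2, the Ly6C antigen itself, stood at 1569.9 CPM in brain CT, 1133 in brain INJ, 1562 in dura CT and 1300.3 in dura INJ. Reads of Ly6c2 may be split with its near-identical neighbour Ly6c1, which the levels used here do not include. Ccr2 stood at 935, 1029.6, 910.1 and 1276 CPM in the order brain CT, brain INJ, dura CT, dura INJ, an order kept below wherever 4 values follow each other. Vcan, a proteoglycan of classical monocytes, stood at 68.2, 228, 115 and 382 CPM, and F10, coagulation factor X, at 145, 302, 151 and 283 CPM. Lyz2, Chil3 and Hp, which classical monocytes express, are no part of the rule. They are not set beside other cells here, so they do not settle the label. Lyz2, lysozyme, stood at 40938, 26477, 37998 and 32194 CPM and Chil3, a chitinase-like secreted lectin, at 1844, 2323, 2254 and 3035 CPM. Hp, haptoglobin, stood at 1028, 1237, 1121 and 1750.3 CPM. As sums all 3 were abundant in every library, but the lower quartile of Chil3 over the cells was 0 in brain CT, brain INJ and dura CT.

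Markers of other cells were present to differing degrees. The 8 neutrophil markers summed to 353, 579, 763 and 2050 CPM, of which S100a8 and S100a9 were the bulk, while the defining marker Ly6g stood at 0, 0, 1.66 and 1.13 CPM. T cells chosen with no Lyz2 or Retnlg molecule held 196, 286, 539 and 577 CPM of the same list. The 8 T and NK cell markers summed to 8.67, 39.8, 58.2 and 5.63 CPM, and the 8 microglia markers to 227, 307, 243 and 171 CPM. The 8 border macrophage markers summed to 722, 743, 982 and 990.0 CPM, of which F13a1, a coagulation factor subunit that classical monocytes also express, made up 681, 644, 881 and 873 CPM, while the defining marker Lyve1 stood at 0, 0.442, 0.555 and 0 CPM. The 8 dendritic cell markers summed to 186, 109.6, 263 and 70.4 CPM, with Cd209a and Clec10a in the lead, and the 6 B cell markers to 257, 157, 288 and 162 CPM, most of it Ighm. Between 3 and 11 barcodes were shared by any pair of libraries, and 0 of them were monocytes in both. T and B cells pooled, chosen with Lyz2, Retnlg, Mpo and Top2a at 0, are used below as a gauge of free RNA. They numbered 505, 70, 247 and 54 cells. The demand on Lyz2 keeps the cells with the least myeloid RNA, so this gauge is a low one. Without it the T and B cells numbered 915, 215, 586 and 222, of which 44.8%, 67.4%, 57.9% and 75.7% held a Lyz2 UMI, and Lyz2 stood at 775, 2865, 1317 and 1912 CPM in them. This wider set may include pairs of cells, and its level is given below for some of the genes whose reading rests on the gauge. The part of free RNA in any result was not tested.

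Injury went with a common set of genes in the monocytes of both tissues. Of 5196 genes with a mean of at least 20 CPM over the 4 libraries, 151 were at least 2-fold higher in brain INJ than in brain CT, which is 2.91%, and 107 were at least 2-fold lower, 2.06%. In the dura 62 genes were at least 2-fold higher in INJ, 1.19%, and 73 were lower, 1.4%. With the genes of the rule left out, 38 genes were higher in both tissues, 26.2% of the 145 in the brain and 64.4% of the 59 in the dura. Lower in both were 21 genes, 19.6% of the 107 in the brain and 28.8% of the 73 in the dura. Among the 21 were the heat shock genes Hspa1a and Hspa1b, the immediate early genes Jun and Atf3, and the chemokine Ccl3, taken up below. The brain and the dura comparison share no library, but whether they share animals is not given in the sources used here.

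Lrg1, a secreted glycoprotein that modulates TGF-beta signalling in vessels, differed most in both tissues. It stood at 0.578 CPM in brain CT, 48.6 in brain INJ, 0.555 in dura CT and 82.2 in dura INJ, which came from 1, 110, 1 and 146 UMIs. Both CT libraries were at the edge of detection and both INJ libraries were far above. The log2 ratio of INJ to CT was 6.39, interval 3.89 to 11.71 in the brain and 7.21, interval 4.71 to 12.53 in the dura. No Lrg1 UMI was found in T and B cells of either INJ library, and in the wider set it stood at 0.783, 0.610, 2.61 and 10.5 CPM. In the injured brain, infiltrating macrophages, which were set apart by 3 or 4 of the macrophage genes at 1.5 or more, stood at 11.1 CPM, and patrolling monocytes at 10.3 CPM. Patrolling monocytes of the dura stood at 25.2 CPM in CT and 55.5 CPM in INJ.

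F11r, which encodes the junctional adhesion molecule JAM-A, followed the same pattern with 2.89 CPM in brain CT, 53.5 in brain INJ, 1.11 in dura CT and 36.6 in dura INJ. Its log2 ratio was 4.21, interval 2.95 to 5.86 in the brain and 5.04, interval 3.13 to 8.12 in the dura. Prtn3, proteinase 3 of the primary granules made by marrow precursors, stood at 19.1 CPM in brain CT, 130.4 in brain INJ, 41.6 in dura CT and 164 in dura INJ. INJ was above CT in both tissues, with a log2 ratio of 2.77, interval 2.25 to 3.34 in the brain and 1.98, interval 1.61 to 2.36 in the dura. After each cell was thinned to 2000 UMIs, 4%, 13.7%, 5.65% and 20.6% of monocytes held a Prtn3 UMI, against 0%, 0%, 0% and 0% of T cells. In the wider set of T and B cells Prtn3 stood at 0.94, 9.14, 6.79 and 9.88 CPM. Without thinning the shares of monocytes were 15.2%, 64.7%, 23.4% and 66.7%. Mpo, which is made at the same precursor stage, was set to 0 by the rule. Of the 4 precursor genes at 20 CPM or more, Prtn3 was past 2-fold higher after injury in both tissues, beside 2.91% and 1.19% of all genes. Cd177 was past 2-fold lower in the dura, beside 1.4%. The other 3 genes had log2 ratios below 0 in both tissues, and the medians of the list were -0.58 in the brain and -0.51 in the dura.

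Ms4a6d, a tetraspan membrane protein of monocytes, stood at 121 CPM in brain CT, 496 in brain INJ, 129.8 in dura CT and 355 in dura INJ, with log2 ratios of 2.03, interval 1.82 to 2.25 and 1.45, interval 1.23 to 1.68. Ifitm1, an interferon-inducible membrane protein, stood at 36.4 CPM in brain CT, 406 in brain INJ, 15.5 in dura CT and 64.8 in dura INJ, and 73% of its brain CT molecules and 27.1% of its brain INJ molecules came from 1 cell. C5ar1, the receptor of complement fragment C5a, stood at 13.3 CPM in brain CT, 155 in brain INJ, 25.5 in dura CT and 71 in dura INJ. Its log2 ratio was 3.54, interval 2.93 to 4.22 in the brain and 1.48, interval 0.98 to 2.0 in the dura, so both intervals lie above 0. Saa3, an acute-phase protein, stood at 4.05, 55.3, 4.44 and 35.5 CPM, and 61.9% of the dura INJ molecules came from 1 cell. Gcnt2, a glycosyltransferase that branches surface sugars, stood at 31.2, 96.4, 14.4 and 71.5 CPM, with a log2 ratio of 1.63, interval 1.19 to 2.08 in the brain and 2.31, interval 1.69 to 2.98 in the dura. Nt5dc2 stood at 9.25, 90.2, 18.3 and 57.4 CPM. Nrg1, an EGF-family growth factor, stood at 5.78, 18.1, 31.1 and 66.5 CPM: each INJ library was above its CT library, and each dura library was above its brain library. The matrix genes Mmp19, a metalloproteinase, and Ecm1, an extracellular matrix glycoprotein, were past 2-fold in both tissues, with Mmp19 at 8.67, 43.3, 12.2 and 36 CPM and Ecm1 at 12.7, 102, 14.4 and 37.7 CPM.

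The lowest brain ratio among genes lower in both tissues was that of Lpl, lipoprotein lipase, which stood at 137 CPM in brain CT, 15.5 in brain INJ, 131 in dura CT and 19.1 in dura INJ. The CT libraries of brain and dura lay within their counting error of each other, with a log2 ratio of 0.07, interval -0.20 to 0.33, and both INJ libraries lay far below. The log2 ratio of INJ to CT was -3.15, interval -3.7 to -2.63 in the brain and -2.77, interval -3.34 to -2.25 in the dura. Hpgd, which breaks down prostaglandins, stood at 181 CPM in brain CT, 55.3 in brain INJ, 142 in dura CT and 70.4 in dura INJ, with log2 ratios of -1.71, interval -2.02 to -1.41 and -1.01, interval -1.33 to -0.70. Hcar2, the receptor of niacin and beta-hydroxybutyrate, stood at 66.5, 15, 43.8 and 6.76 CPM, with log2 ratios of -2.14, interval -2.74 to -1.58 and -2.7, interval -3.71 to -1.81. Flt1, a receptor of VEGF-A, stood at 24.9, 7.52, 39.4 and 9.57 CPM, and both INJ libraries were below both CT libraries. Padi2, which citrullinates proteins, stood at 60.1, 11.9, 68.8 and 31 CPM and Gm1673 at 59, 7.96, 58.2 and 23.7 CPM. In the injured brain Padi2 was no higher than in T and B cells, at 16.3 CPM.

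**Figure D1:**
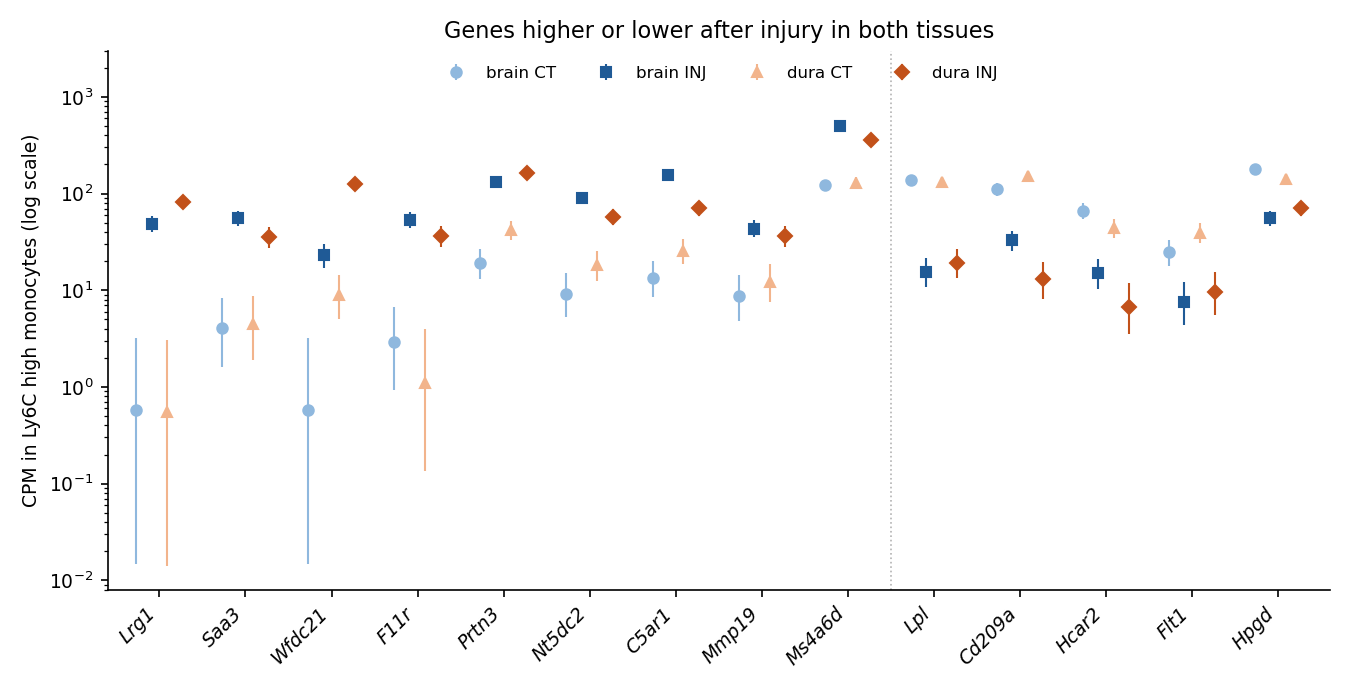
CPM on a log axis of 14 genes in the Ly6C high monocytes of the 4 libraries, 1 point per library with its exact 95% Poisson interval. In the 9 genes on the left both INJ points lie above both CT points, and in the 5 on the right both lie below, as for Lpl at 137 and 131 CPM in CT and 15.5 and 19.1 CPM in INJ.

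Cd209a, a lectin of dendritic cells and of monocytes that carry MHC class II, was also lower in both tissues. It stood at 110.4 CPM in brain CT, 32.7 in brain INJ, 153 in dura CT and 13 in dura INJ, and its log2 ratio was -1.75, interval -2.16 to -1.36 in the brain and -3.56, interval -4.24 to -2.94 in the dura. Cells with at least 1 Cd209a UMI numbered 19, 12, 17 and 4. In dura INJ 87% of the molecules came from 1 of them.

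Beyond the common set, the brain and the dura differed in which gene groups moved. The gene lists described here were assembled with earlier results of these data known, and a list is described by its counts and its median beside the median of all 5196 genes, which was -0.01 in both tissues. In the brain, the median log2 ratio was 1.47 for alarmins and neutrophil-type proteins, 1.70 for chemokines, 1.01 for pattern and Fc receptors, 0.95 for glycolysis and hypoxia genes and 0.81 for macrophage maturation genes. In the dura the same lists stood at 1.07, -0.73, 0.47, 0.15 and 0.39.

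**Figure D2:**
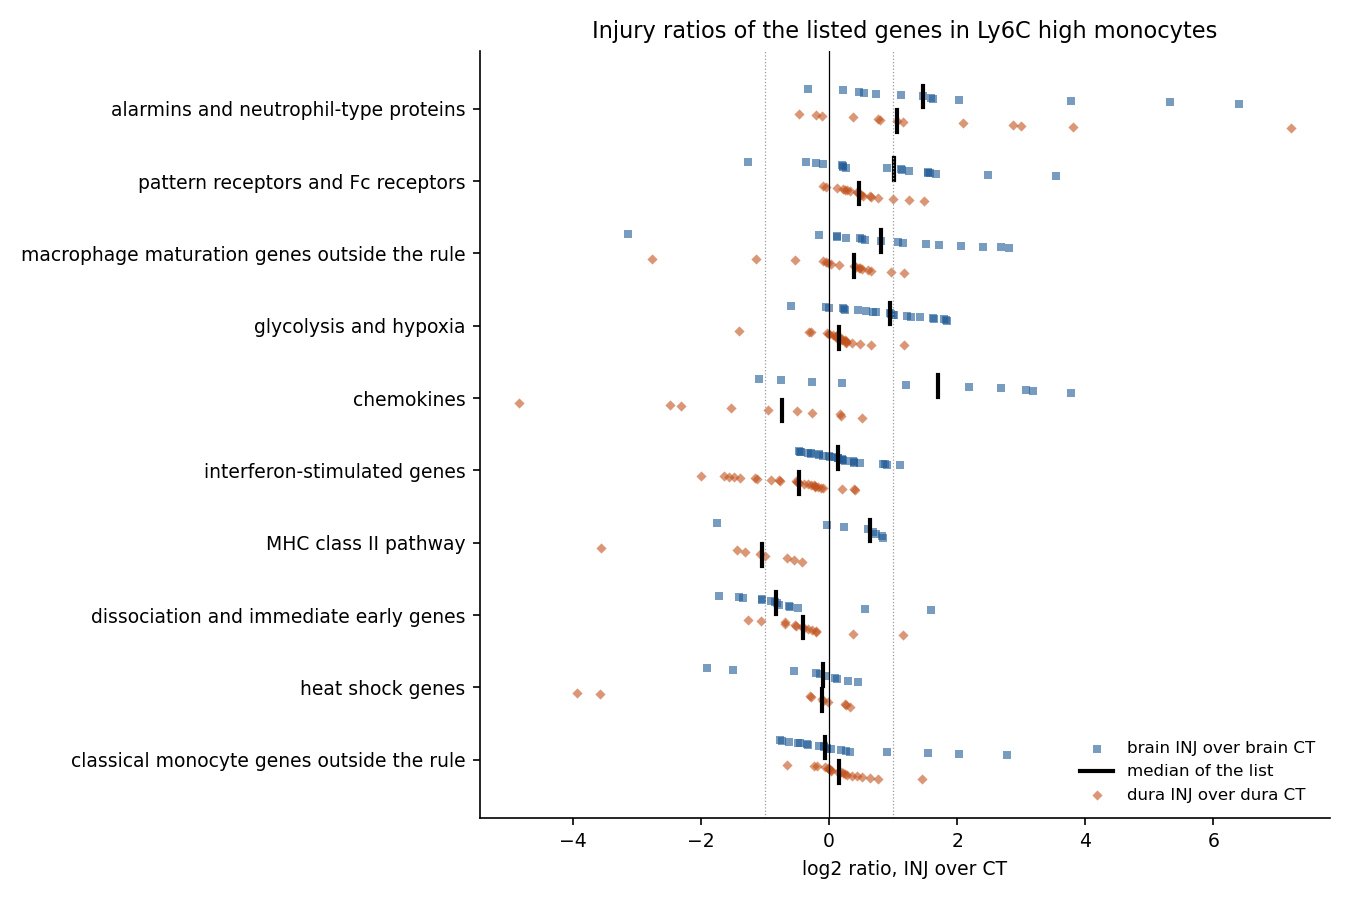
Log2 ratio of INJ to CT for each gene of 10 lists in the Ly6C high monocytes, brain and dura side by side, for genes with a mean of at least 20 CPM, with the median of each list. The MHC class II list has a median of 0.64 in the brain and -1.04 in the dura, and the chemokine list 1.70 in the brain and -0.73 in the dura.

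Genes of glycolysis and of the response to low oxygen were higher in the monocytes of the injured brain. When oxygen falls, the factor Hif-1 binds promoters and turns on glucose uptake, glycolysis, lactate export and mitophagy. Of the 22 list genes at 20 CPM or more, 9 were past 2-fold higher in brain INJ and 0 lower, beside 2.91% of all genes, and 1 was higher and 1 lower in the dura, beside 1.19% and 1.4%. Ldha, lactate dehydrogenase A, stood at 202 CPM in brain CT, 490.3 in brain INJ, 237 in dura CT and 269 in dura INJ. Brain INJ was the highest library, and the log2 ratio was 1.28, interval 1.11 to 1.46 in the brain and 0.18, interval -0.01 to 0.37 in the dura. The difference between these log2 ratios was 1.1, interval 0.85 to 1.36. T and B cells held 232, 305, 210.1 and 306 CPM of Ldha, which in 3 of 4 libraries is near the level of the monocytes.

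Slc16a3, the exporter of lactate, was low in T and B cells, at most 22.6 CPM, and at most 35.4 CPM in the wider set. It stood at 93.6 CPM in brain CT, 292 in brain INJ, 204 in dura CT and 204 in dura INJ, with a log2 ratio of 1.64, interval 1.39 to 1.9 in the brain and 0.0, interval -0.21 to 0.22 in the dura. Brain CT was the low library. Bnip3, a mitophagy receptor, stood at 13.9, 49.5, 9.98 and 11.8 CPM, with a log2 ratio of 1.84, interval 1.19 to 2.54 in the brain. P4ha1, a prolyl hydroxylase of collagen synthesis, stood at 15.6, 55.3, 22.2 and 25.3 CPM, with a log2 ratio of 1.82, interval 1.21 to 2.48. For both, brain INJ was the high library, and the dura intervals of 0.24, interval -0.73 to 1.24 and 0.19, interval -0.46 to 0.84 include 0. Slc2a1, the glucose transporter Glut1, stood at 29.5, 68.5, 49.9 and 53.5 CPM and Tpi1, triosephosphate isomerase, at 124, 251, 124 and 121 CPM. Ero1l, an oxidase of the endoplasmic reticulum, was past 2-fold in both tissues, at 19.1, 65.9, 18.3 and 41.1 CPM, although T and B cells held as much, up to 74.2 CPM.

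The promoters of these 4 genes, Ldha, Bnip3, P4ha1 and Slc16a3, are shown because they were past 2-fold in the brain and within 2-fold in the dura and carry the core letters of the hypoxia element. The sequences are the 250 bases before a transcript start from RefSeq on GRCm38.p6, 5′ to 3′ on the strand of the gene. Each block of ACGTG or its complement CACGT is in capitals. They lie at chr7:46845554-46845803 on the plus strand for Ldha, chr7:138909507-138909756 on the minus strand for Bnip3, chr10:59323046-59323295 on the plus strand for P4ha1 and chr11:120948817-120949066 on the plus strand for Slc16a3. The block nearest to the start begins 34, 108, 16 and 14 bases before it in that order. For Ldha and Slc16a3 this transcript start lies inside the gene, whose annotated first base is chr7:46841475 and chr11:120948480.
Ldha: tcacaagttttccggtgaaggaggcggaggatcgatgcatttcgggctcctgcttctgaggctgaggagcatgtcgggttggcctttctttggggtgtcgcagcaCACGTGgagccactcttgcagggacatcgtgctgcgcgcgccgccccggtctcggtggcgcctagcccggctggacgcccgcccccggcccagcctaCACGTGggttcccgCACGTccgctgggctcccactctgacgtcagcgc
Bnip3: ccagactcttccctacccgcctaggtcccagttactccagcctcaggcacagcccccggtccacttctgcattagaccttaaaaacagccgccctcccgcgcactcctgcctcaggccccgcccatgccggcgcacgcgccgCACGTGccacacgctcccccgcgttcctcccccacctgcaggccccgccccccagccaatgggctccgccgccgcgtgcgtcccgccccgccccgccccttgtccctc
P4ha1: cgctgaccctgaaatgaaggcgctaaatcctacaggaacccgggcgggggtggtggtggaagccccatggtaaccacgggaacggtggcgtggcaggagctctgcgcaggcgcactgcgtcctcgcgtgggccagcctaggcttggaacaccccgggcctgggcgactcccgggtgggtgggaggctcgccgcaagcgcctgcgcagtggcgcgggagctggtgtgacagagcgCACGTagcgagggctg
Slc16a3: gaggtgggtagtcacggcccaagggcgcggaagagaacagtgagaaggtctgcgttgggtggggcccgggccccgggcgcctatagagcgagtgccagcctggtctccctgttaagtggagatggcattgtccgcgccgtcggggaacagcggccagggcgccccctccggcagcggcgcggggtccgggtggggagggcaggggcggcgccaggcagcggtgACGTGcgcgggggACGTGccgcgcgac
The 6 letters CACGTG hold the element on both strands, count as 1 block, and are also the E-box read by other factors. In windows of 300 bases, 250 before the start and 50 after, searched on both strands, 16 of the 22 listed genes that have a window held the element, 72.7%. Of the 8 past 2-fold in the brain with a window, 7 held it, against 21.8% of 27025 genes with a window and 31.7% of those at 20 CPM or more. The list was made of genes of glycolysis and the response to low oxygen, so a share above that of all genes is no result of these data. A match describes the letters and is no evidence that a factor binds there.

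Fth1 and Tgm2 were also past 2-fold in the brain and within 2-fold in the dura. Fth1, the ferritin heavy chain, stood at 5037 CPM in brain CT, 11644 in brain INJ, 3695 in dura CT and 4700.1 in dura INJ. Brain INJ was above all other libraries, with a log2 ratio of 1.21, interval 1.17 to 1.24 in the brain and 0.35, interval 0.30 to 0.39 in the dura, and T and B cells held 2159 to 2490.2 CPM throughout. In the wider set of T and B cells Fth1 stood at 2505, 5558, 2999 and 3593 CPM. Tgm2, tissue transglutaminase, which cross-links proteins, stood at 8.09 CPM in brain CT, 199 in brain INJ, 9.98 in dura CT and 18.6 in dura INJ. Only brain INJ among the 4 libraries was high. Its log2 ratio was 4.62, interval 3.86 to 5.51 in the brain and 0.90, interval 0.03 to 1.81 in the dura, a difference of 3.69, interval 2.58 to 4.81. Basp1, a membrane-associated protein, stood at 24.3, 199.8, 14.4 and 16.3 CPM, with 57.2 CPM in T and B cells of brain INJ. Dmkn, a secreted protein first described in skin, stood at 1.73, 31.8, 18.3 and 31 CPM, so that brain CT, at 3 UMIs from 1 cell, was the odd library.

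**Figure D3:**
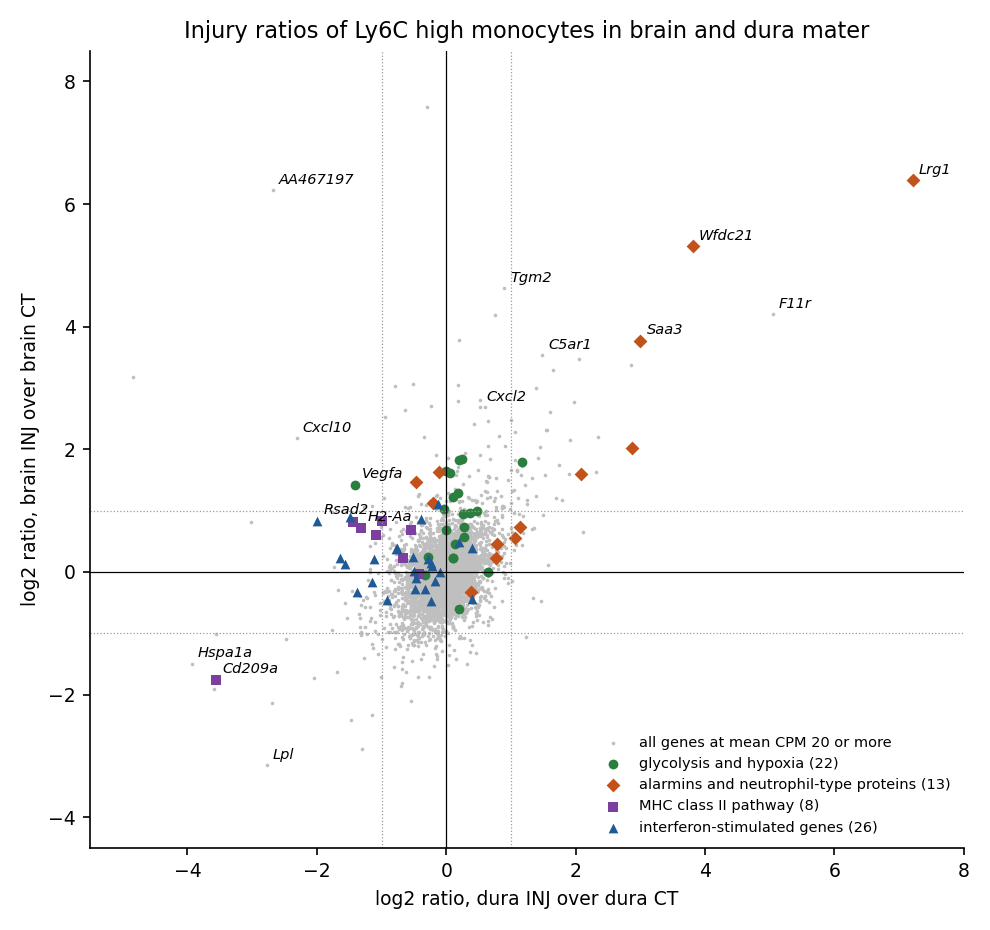
Log2 ratio of INJ to CT in the brain (vertical axis) against that in the dura (horizontal axis) for the Ly6C high monocytes, 1 point per gene with a mean of at least 20 CPM and at least 1 UMI in each library, with 4 lists in colour and dotted lines at 2-fold. Lrg1 lies in the upper right at 6.39 in the brain and 7.21 in the dura, Tgm2 high with 4.62 and 0.90, and Cxcl10 in the upper left with 2.18 and -2.31.

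Of the 10 chemokine genes at 20 CPM or more, 6 were past 2-fold higher in brain INJ and 1 lower, beside 2.91% and 2.06% of all genes, whereas in the dura 0 were higher and 4 lower, beside 1.19% and 1.4%. Cxcl2, which draws neutrophils through Cxcr2, stood at 206 CPM in brain CT, 1326 in brain INJ, 171 in dura CT and 244 in dura INJ. Brain INJ was the high library, the log2 ratio was 2.68, interval 2.53 to 2.85 in the brain and 0.52, interval 0.30 to 0.73 in the dura, and T and B cells held no more than 40.03 CPM. In the wider set of T and B cells Cxcl2 stood at 82.9, 304, 134 and 361 CPM, which in dura INJ is above the monocytes. Ccl2, the ligand of Ccr2, stood at 108 CPM in brain CT, 249 in brain INJ, 248 in dura CT and 128 in dura INJ. Its log2 ratio was 1.21, interval 0.96 to 1.45 in the brain and -0.96, interval -1.19 to -0.72 in the dura, so brain INJ and dura CT were the high libraries. Cxcl16, a membrane-bound chemokine that also takes up oxidised lipid, stood at 8.09, 68.1, 7.21 and 5.07 CPM, high in brain INJ only. Ccl7, which also acts on Ccr2, stood at 2.31, 31.8, 35.5 and 40.5 CPM, but 50%, 67.2% and 51.4% of the molecules in brain INJ, dura CT and dura INJ came from 1 cell each. With the richest cell of each gene left out, the brain median of the chemokine list was 0.72 instead of 1.70, and with the level of T and B cells subtracted it was 0.20. Ccl5, one of the 6, stood at 116 CPM in brain INJ, where T and B cells held 4703 CPM. Ccl6 and Ccl9, which classical monocytes make constantly, were steady. Ccl6 stood at 1161, 969, 1076 and 893 CPM, and Ccl9 at 875, 1010.1, 849 and 953 CPM.

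Il1b, the fever cytokine interleukin-1 beta, was the most abundant cytokine transcript listed and stood at 1569 CPM in brain CT, 3190.0 in brain INJ, 1639 in dura CT and 1466 in dura INJ. Brain INJ was the high library and the other 3 lay close together. The log2 ratio was 1.02, interval 0.96 to 1.09 in the brain and -0.16, interval -0.24 to -0.08 in the dura, a difference of 1.18, interval 1.09 to 1.28. Its antagonists moved likewise in the brain. Il1rn, the soluble receptor antagonist, stood at 7.51, 46.9, 33.3 and 21.4 CPM, and Il1r2, the decoy receptor, at 18.5, 57, 26.1 and 24.2 CPM. Il1rn was lowest in brain CT, and Il1r2 was highest in brain INJ with the other 3 libraries close together. Of 14 cytokine genes at 20 CPM or more, 3 were higher in brain INJ and 0 lower, beside 2.91% and 2.06% of all genes, and in the dura 0 were higher and 1 lower, beside 1.19% and 1.4%. The latter was Il6, at 9.25, 5.30, 54.9 and 24.2 CPM, with both dura libraries above both brain libraries.

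Of 18 listed receptors for microbial signals, damage signals and IgG, 9 were past 2-fold higher and 1 lower in the brain, beside 2.91% and 2.06% of all genes, and 3 were higher and 0 lower in the dura, beside 1.19% and 1.4%. Clec4e, the lectin Mincle that senses dead cells, stood at 172 CPM in brain CT, 409 in brain INJ, 227 in dura CT and 329 in dura INJ. Its log2 ratio was 1.25, interval 1.06 to 1.44 in the brain and 0.54, interval 0.35 to 0.72 in the dura. Each INJ library was above its CT library. Fcgr1, the high-affinity IgG receptor, stood at 128, 373, 92.6 and 158 CPM and Fcgr4, another activating IgG receptor, at 19.1, 106, 21.6 and 43.4 CPM. Trem1, an amplifier of inflammation, stood at 34.1, 99.9, 93.7 and 148 CPM, with brain CT the low library. Tlr7, which senses single-stranded RNA, was the gene lower in the brain, at 67.1, 27.9, 37.2 and 40.5 CPM. Tlr2, which senses bacterial lipoproteins, stood at 342, 396, 517 and 484 CPM and Msr1, a scavenger receptor, at 93.1, 87.1, 77.1 and 91.8 CPM, both within 2-fold in every comparison. Ccr1, a chemokine receptor of monocyte traffic, stood at 112, 315, 146 and 224 CPM, past 2-fold higher in the brain and within 2-fold in the dura.

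Of 17 macrophage maturation genes that the rule did not use, 8 were past 2-fold higher and 1 lower in brain INJ, beside 2.91% and 2.06% of all genes, and 1 was higher and 2 were lower in dura INJ, beside 1.19% and 1.4%. Ctsd, a lysosomal aspartic protease, stood at 213 CPM in brain CT, 888 in brain INJ, 252 in dura CT and 396 in dura INJ. Brain INJ was the highest, with a log2 ratio of 2.06, interval 1.9 to 2.22 in the brain and 0.65, interval 0.48 to 0.82 in the dura. Ctsl, a cysteine protease, was past 2-fold in both, at 117, 387, 126 and 284 CPM. Trem2, the lipid-sensing receptor of tissue phagocytes, stood at 65.9, 187, 63.8 and 124 CPM, with log2 ratios of 1.5, interval 1.2 to 1.82 and 0.96, interval 0.63 to 1.3. Ms4a7, a tetraspan protein of tissue macrophages, stood at 11.6, 80.9, 9.43 and 13.5 CPM, high in brain INJ only. C1qb, a subunit of complement C1q, stood at 31.2, 201, 32.2 and 49 CPM, but T and B cells held 248 CPM in brain INJ, more than the monocytes. The rule holds C1qa, another subunit, below 1.5, so the levels of C1qb and C1qc are not free of the rule. With the level of T and B cells subtracted, the brain ratios of C1qb and C1qc were -0.39. In the wider set of T and B cells of brain INJ, Ctsd stood at 2835 CPM and Trem2 at 379.8 CPM, both above the monocytes.

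The monocytes of the injured brain were not alike in these genes. Of the 153 cells, 133 held none of the 4 macrophage genes of the rule at 1.5 or more, 15 held 1 and 5 held 2, and 6 further cells with 3 or 4 fell just outside the rule. In the other libraries 5 to 7 cells held 1 and 0 held 2. Since these 4 genes are part of the rule, the split is a description. Ctsd stood at 737 CPM in cells with none, 1478 in cells with 1, 3360.3 in cells with 2 and 10089.5 in the 6 cells outside. Ms4a7 stood at 47.9, 221, 581 and 918 CPM in the same order, and Apoe, the lipid carrier, at 3671, 6482, 16770.0 and 29952. All 3 climbed with the number of macrophage genes.

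Hp and Ccr2, a gene of the rule, ran the other way along the same split. Hp stood at 1321, 801, 283 and 108 CPM, and Ccr2 at 1054, 946, 581 and 134. Cxcl2 was at its highest in the cells with 2 macrophage genes, at 7851 CPM, against 1021 in those with none. The cells with none stood close to the whole for other genes of the injured brain. Tgm2 stood at 197 CPM, Vegfa at 136, Il1b at 3164 and Ldha at 452 in the 133 cells with none. The median of the maturation list in the brain was 0.54 when the comparison was limited to cells with none, against 0.81 with all cells. The infiltrating macrophages of that library, 560 cells, held 651 CPM of Ms4a7, 302 of Tgm2, 134 of Bnip3 and 1131 of Il1b.

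**Figure D4:**
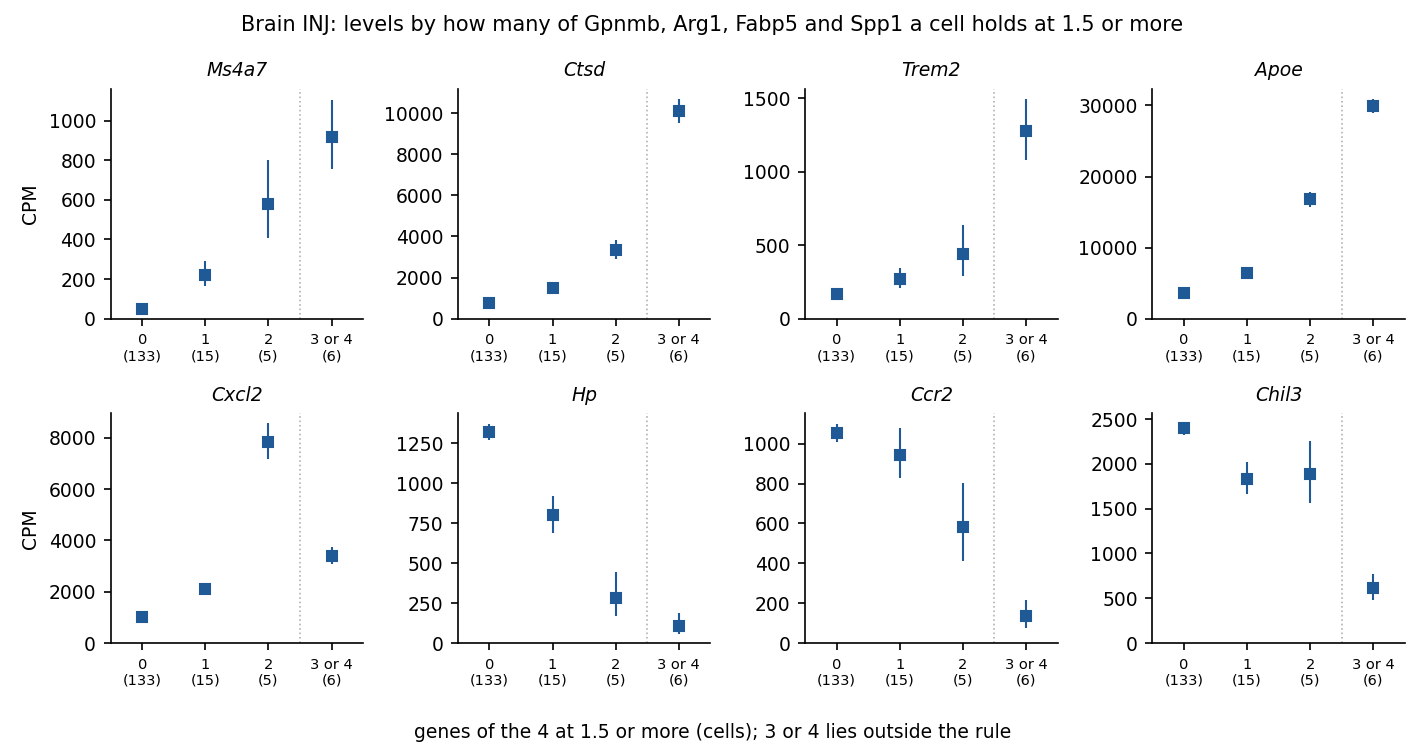
CPM on a linear axis from 0 of 8 genes in brain INJ for Ly6C high monocytes with 0, 1 or 2 of the macrophage genes Gpnmb, Arg1, Fabp5 and Spp1 at 1.5 or more (133, 15 and 5 cells) and for the 6 cells with 3 or 4 that fell outside the rule, with exact 95% Poisson intervals. Ctsd runs from 737 to 10089.5 CPM and Hp from 1321 to 108 CPM along the 4 classes.

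Alarmins and proteins shared with neutrophils were mostly higher after injury in both tissues. Of 13 such genes, 7 were past 2-fold higher and 0 lower in dura INJ, beside 1.19% of all genes. In brain INJ 8 were higher and 0 lower, beside 2.91%. In brain CT against dura CT 0 were higher and 6 lower, beside 0.866% and 1.15%. S100a8, a calcium-binding alarmin, stood at 66.5 CPM in brain CT, 201 in brain INJ, 257 in dura CT and 1090.3 in dura INJ. Dura INJ was the highest library, with a log2 ratio of 2.09, interval 1.94 to 2.24 in the dura and 1.59, interval 1.3 to 1.9 in the brain. T and B cells held 67.6, 114, 211 and 252 CPM, so brain CT and dura CT monocytes were level with this gauge or slightly above it. In the wider set they held 71.9, 82.9, 524 and 1375 CPM, above the monocytes in both dura libraries, and the part of free RNA in the dura result was not tested. S100a9, its partner, stood at 104, 152, 286 and 599 CPM, with 439 CPM in T and B cells of dura INJ. Lcn2, the iron-scavenging lipocalin, stood at 12.7 CPM in brain CT, 51.7 in brain INJ, 26.6 in dura CT and 195 in dura INJ, with 31.4 CPM in T and B cells of dura CT and 25.8 in those of dura INJ. The log2 ratio of Lcn2 was 2.02, interval 1.36 to 2.75 in the brain and 2.88, interval 2.44 to 3.34 in the dura. Wfdc21, a small secreted protein of the whey acidic family, stood at 0.578, 23, 8.87 and 124 CPM. T and B cells held 6.76, 2.72, 33.6 and 25.8 CPM of it, above the monocytes in both CT libraries. For S100a9, Lcn2 and Wfdc21 only this low gauge is given, and the part of free RNA in their results was not tested. Mmp8, neutrophil collagenase, stood at 72.3, 120.2, 104 and 231 CPM and was near 0 in T and B cells, at most 3.22 CPM, and 4.96 CPM in the wider set. The rule bars any cell with a Retnlg molecule and so bears on this list: with Retnlg below 1.5 its median was 3.36 in the brain and 0.88 in the dura.

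A few genes were past 2-fold in opposite directions. Of the 145 genes higher in the brain, 6 were lower in the dura, 4.14%, beside 1.4% of all genes. Of the 107 lower in the brain, Mtm1, a lipid phosphatase, was higher in the dura, 0.935%, which is near the 1.19% of all genes. Cxcl10, an interferon-induced chemokine for Cxcr3, stood at 53.2 CPM in brain CT, 242 in brain INJ, 174 in dura CT and 34.9 in dura INJ. Brain INJ and dura CT were high. The log2 ratio was 2.18, interval 1.86 to 2.52 in the brain and -2.31, interval -2.73 to -1.92 in the dura, a difference of 4.48, interval 3.98 to 4.99. However, 34.2% of the dura CT and 67.7% of the dura INJ molecules came from 1 cell each. Without the richest cell of each library the difference was 5.36. Vegfa, the vessel growth factor, was less concentrated, with at most 13.9% of its molecules in 1 cell. It stood at 50.9 CPM in brain CT, 137 in brain INJ, 53.8 in dura CT and 20.3 in dura INJ. CT monocytes of brain and dura lay within counting error, brain INJ was above both and dura INJ below both, with log2 ratios of 1.43, interval 1.08 to 1.78 and -1.41, interval -2.0 to -0.84. In patrolling monocytes Vegfa stood at 28, 77.7, 42.9 and 0 CPM, the same order of libraries in each tissue, where the 0 has an exact upper bound of 12.8 CPM.

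Interferon-stimulated genes separated the injured tissues rather than injured from control brain. Type I interferon turns these genes on through the interferon-stimulated response element of their promoters. Of 26 genes at 20 CPM or more, 1 was past 2-fold higher and 0 lower in the brain, near the 2.91% and 2.06% of all genes, with a median log2 ratio of 0.14. In the dura 0 were higher and 7 lower, beside 1.19% and 1.4%, with a median of -0.48. Compared directly, 114 of all genes, 2.19%, were at least 2-fold higher in brain INJ than in dura INJ and 73, 1.4%, were lower. Among the interferon-stimulated genes these numbers were 11 and 0. The 28 listed genes summed to 2802, 3272, 2529 and 1822 CPM in the monocytes. In T cells without Lyz2, which numbered 265, 47, 41 and 22, they summed to 923, 1420, 1719 and 794 CPM. T cells too stood higher in brain INJ than in dura INJ, and lower in dura INJ than in dura CT. Whether the pattern is particular to the monocytes was not tested. Rsad2, the antiviral enzyme viperin, stood at 76.3 CPM in brain CT, 136 in brain INJ, 96.5 in dura CT and 24.2 in dura INJ. Dura INJ was the low library, with a log2 ratio of -1.99, interval -2.51 to -1.51 in the dura and 0.84, interval 0.54 to 1.14 in the brain. Ifit3, which blocks viral RNA translation, stood at 90.7 CPM in brain CT, 99.5 in brain INJ, 89.8 in dura CT and 30.4 in dura INJ, with log2 ratios of -1.56, interval -2.04 to -1.11 in the dura and 0.13, interval -0.17 to 0.44 in the brain. Isg15, a ubiquitin-like protein, stood at 268, 488, 261 and 198 CPM and Irf7, the factor that amplifies the response, at 284, 328, 194 and 159.9 CPM. Few cells carried these transcripts: the richest cell held 53.5% of the dura INJ molecules of Rsad2 and 37% of those of Ifit3.

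The promoters of Cxcl10, Rsad2 and Ifit3 are shown as members of this pattern that carry the interferon-stimulated response element, searched on both strands as GAAA, any 2 bases and GAAA. They are RefSeq sequences on GRCm38.p6 of the 250 bases before the gene start, 5′ to 3′ on the strand of the gene, with the element in capitals. Their positions are chr5:92348890-92349139 on the minus strand for Cxcl10, chr12:26456453-26456702 on the minus strand for Rsad2 and chr19:34583279-34583528 on the plus strand for Ifit3.
Cxcl10: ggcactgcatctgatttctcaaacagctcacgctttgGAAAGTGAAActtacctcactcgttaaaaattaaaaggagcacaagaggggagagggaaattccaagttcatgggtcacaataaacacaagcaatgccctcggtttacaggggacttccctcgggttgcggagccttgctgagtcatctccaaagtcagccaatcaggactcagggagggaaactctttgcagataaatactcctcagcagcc
Rsad2: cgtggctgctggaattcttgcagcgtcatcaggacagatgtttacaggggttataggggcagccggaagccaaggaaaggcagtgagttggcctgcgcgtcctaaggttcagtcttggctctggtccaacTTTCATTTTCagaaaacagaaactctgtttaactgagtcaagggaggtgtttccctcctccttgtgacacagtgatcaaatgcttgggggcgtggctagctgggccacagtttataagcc
Ifit3: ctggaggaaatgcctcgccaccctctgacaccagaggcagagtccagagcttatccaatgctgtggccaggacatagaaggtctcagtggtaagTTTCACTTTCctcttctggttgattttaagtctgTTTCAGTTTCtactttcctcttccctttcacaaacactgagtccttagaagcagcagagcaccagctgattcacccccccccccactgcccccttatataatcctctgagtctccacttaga
Cxcl10 and Rsad2 hold 1 block each, beginning 213 and 120 bases before the start, and Ifit3 holds 2, the nearer beginning at 122 bases. Of 27025 genes with a window, 3.99% held the element. A window was at hand for 21 of the 28 listed genes, too few to give a share for the list.

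MHC class II genes, which present peptide to CD4+ T cells, also went apart. Of 8 genes of the pathway, 0 were past 2-fold higher and 1, Cd209a, was lower in the brain, beside 2.91% and 2.06% of all genes, with a median of 0.64. In the dura 0 were higher and 4 lower, beside 1.19% and 1.4%, with a median of -1.04. H2-Aa stood at 540.5 CPM in brain CT, 893 in brain INJ, 893 in dura CT and 358 in dura INJ. Brain INJ and dura CT were high and dura INJ low, with a log2 ratio of 0.72, interval 0.61 to 0.84 in the brain and -1.32, interval -1.45 to -1.18 in the dura. Cd74, the invariant chain, stood at 1855 CPM in brain CT, 2820.4 in brain INJ, 2793 in dura CT and 1315 in dura INJ, with log2 ratios of 0.60, interval 0.54 to 0.67 and -1.09, interval -1.16 to -1.02. These molecules sat in a minority of cells. Monocytes with a Cd209a UMI held 2212 CPM of H2-Aa in brain CT, 4587 in brain INJ, 3857 in dura CT and 2932 in dura INJ. In those without one, H2-Aa stood at 227, 444, 349 and 236 CPM. In both kinds of cell brain INJ lay above brain CT and dura INJ below dura CT, as over all monocytes. Monocytes with a Cd209a UMI numbered 17 in dura CT and 4 in dura INJ, and their part in the dura ratio was not tested.

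The edge of the rule runs through the same cells. Monocytes just inside the Ly6c2 threshold, at 1 to 1.5, numbered 16, 28, 10 and 9, and held 1597, 1873, 2018 and 112 CPM of H2-Aa. Cells just outside it, at 0.5 to 1, numbered 11, 41, 10 and 10, and held 1693, 2738, 3929 and 3247 CPM. With Ly6c2 at 2 or more, the median of the MHC class II list was 0.13 in the brain and -0.88 in the dura. T and B cells held 868 to 1534 CPM of H2-Aa, which B cells express themselves, so they cannot gauge free RNA for this list.

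Stress genes set the brain apart from the dura in CT as well as in INJ. Of all genes, 45 were at least 2-fold higher in brain CT than in dura CT, 0.866%, and 60 were lower, 1.15%. Of the 10 heat shock genes, 4 were higher in brain CT and 0 lower, and 4 higher and 0 lower in brain INJ against dura INJ. After injury 0 were higher and 2, Hspa1a and Hspa1b, lower in each tissue. All genes stood at 2.91% and 2.06% in the brain and 1.19% and 1.4% in the dura. Hspa1a, the inducible chaperone Hsp70, stood at 2410.4 CPM in brain CT, 856 in brain INJ, 819 in dura CT and 53.5 in dura INJ, so that each library stood apart from the next except brain INJ and dura CT. The log2 ratio of brain CT to dura CT was 1.56, interval 1.47 to 1.64, and that of INJ to CT was -1.49, interval -1.57 to -1.42 in the brain and -3.94, interval -4.25 to -3.64 in the dura. The level in T and B cells moved with it, at 1824, 1241, 192 and 35.5 CPM, and patrolling monocytes at 2574, 1789, 229 and 69.4 CPM. With the T and B cell level subtracted, the ratio of brain CT to dura CT for Hspa1a was -0.10. Whether tissue dissociation contributes was not tested.

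Among 14 immediate early genes, which respond within minutes and are induced by cell isolation, Jun and Atf3 were past 2-fold higher in brain than in dura both in CT and in INJ. Jun stood at 1442 CPM in brain CT, 543 in brain INJ, 441 in dura CT and 183 in dura INJ, highest in brain CT and lowest in dura INJ, whereas T and B cells held 827, 1023, 603 and 465 CPM. Atf3, a stress-induced repressor, stood at 1614 CPM in brain CT, 638 in brain INJ, 564 in dura CT and 270.3 in dura INJ. Its log2 ratio was 1.52, interval 1.41 to 1.62 for brain CT over dura CT, and T and B cells held at most 78.9 CPM, or 271 CPM in the wider set. After injury 1 of the 14 was past 2-fold higher and 5 lower in the brain, beside 2.91% and 2.06% of all genes. In the dura 1 was higher and 2 lower, beside 1.19% and 1.4%. The medians were -0.83 and -0.41, and 2 of the 14 had log2 ratios above 0 in each tissue. The gene past 2-fold higher in both tissues was Ier3, at 280.3, 843, 410.4 and 912 CPM. The inflammatory chemokine genes Ccl3 and Ccl4 followed the order of Jun. Ccl3 stood at 933 CPM in brain CT, 436 in brain INJ, 330.0 in dura CT and 59.1 in dura INJ, with a log2 ratio of 1.5, interval 1.36 to 1.64 for brain CT over dura CT and -2.48, interval -2.79 to -2.18 for dura INJ over dura CT, and Ccl4 stood at 961, 573, 253 and 87.9 CPM.

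**Figure D5:**
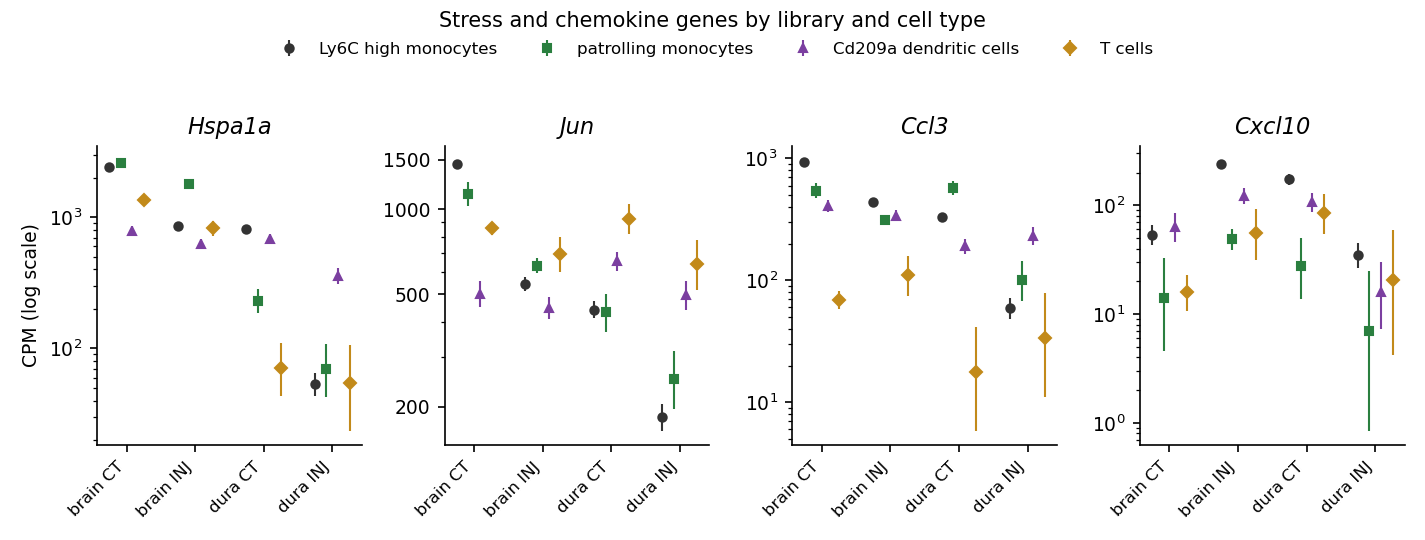
CPM on a log axis of Hspa1a, Jun, Ccl3 and Cxcl10 in Ly6C high monocytes, patrolling monocytes, Cd209a dendritic cells and T cells without Lyz2 of each of the 4 libraries, with exact 95% Poisson intervals. Hspa1a of the monocytes runs from 2410.4 CPM in brain CT to 53.5 in dura INJ, and that of patrolling monocytes from 2574 to 69.4.

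Other genes distinguished the tissues in CT. Id1 and Id3, which block basic helix-loop-helix factors, were higher in the brain. Id1 stood at 187 CPM in brain CT, 88.9 in brain INJ, 25.5 in dura CT and 29.3 in dura INJ, with a log2 ratio of 2.88, interval 2.43 to 3.35 for brain CT over dura CT, and Id3 at 250.3, 223, 66.6 and 95.7 CPM. Hmox1, heme oxygenase 1, stood at 332 CPM in brain CT, 312 in brain INJ, 104 in dura CT and 114 in dura INJ. Both brain libraries were above both dura libraries, with a log2 ratio of 1.67, interval 1.43 to 1.92 in CT and 1.45, interval 1.22 to 1.68 in INJ, and injury moved neither tissue by as much as 2-fold. Rhob, a small GTPase, stood at 276, 195, 78.8 and 38.9 CPM. Lower in brain CT than in dura CT were Il6, at a log2 ratio of -2.57, interval -3.43 to -1.8, and Nrg1, at -2.43, interval -3.56 to -1.44. Of 6 cell cycle genes at 20 CPM or more, 0 were higher and 2, Ccnb2 and Stmn1, lower in brain CT than in dura CT, beside 0.866% and 1.15% of all genes, with cells that hold Top2a left out by the rule. Stmn1, which destabilises microtubules, stood at 15.6, 50.8, 62.7 and 71 CPM, where T and B cells held 29.3, 57.2, 56.5 and 25.8 CPM. Ccnb2, cyclin B2, stood at 5.78, 37.6, 39.9 and 33.8 CPM and Ube2c, a ubiquitin-conjugating enzyme of mitosis, at 6.94, 38, 29.9 and 46.7 CPM. Brain CT was the low library and the other 3 lay within counting error of each other for Ccnb2. Top2a alone left out 20, 27, 34 and 23 further cells. Cks1b, a subunit of cell cycle kinases, stood at 6.94, 24.8, 24.4 and 29.3 CPM. Lyz1, a second lysozyme, stood at 20.8, 36.7, 95.9 and 11.8 CPM, but 83.8% of the dura CT molecules came from 1 cell.

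After injury the brain stood below the dura in Pglyrp1, a peptidoglycan-binding protein, which stood at 78, 18.1, 81 and 55.8 CPM, and in Fpr2, a receptor of formyl peptides and lipid mediators, at 16.8, 14.6, 31.6 and 44.5 CPM. Brain INJ was the low library for Pglyrp1, at less than the 62.6 CPM of T and B cells. Pabpc1l, a poly(A)-binding protein, stood at 13.3, 8.40, 29.9 and 28.7 CPM, low in both brain libraries. Tnf stood at 31.2, 47.3, 12.2 and 6.19 CPM and lay below T and B cells in all 4 libraries. A further set was lower in brain INJ than in the other 3 libraries. It held Gm9733 at 227, 79.6, 152 and 189.8 CPM, Gdpd3, a phospholipid-cleaving enzyme, at 50.9, 19, 46 and 51.2 CPM, and Lifr, the LIF receptor, at 43.4, 19, 31.1 and 41.1 CPM. For these the brain ratio minus the dura ratio was -1.83, -1.57 and -1.58 on the log2 scale. Tppp3, a tubulin-binding protein, stood at 74, 53.5, 30.5 and 83.9 CPM, low in dura CT, and Ldlrad3 at 76.9, 23.4, 71.5 and 52.9 CPM, low in brain INJ. Tmcc3 was lowest in dura INJ, at 51.4, 25.6, 33.3 and 2.82 CPM, where T and B cells held 19.4 CPM.

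The cells were gated as classical monocytes in every library, so the lists of monocyte genes are given as a description. Of 20 classical monocyte genes outside the rule, 3 were past 2-fold higher and 0 lower in the brain and 1 higher and 0 lower in the dura, beside 2.91% and 2.06% of all genes in the brain and 1.19% and 1.4% in the dura, with medians of -0.06 and 0.16. The 3 were Ms4a6d, Fcgr1 and Ly6a, and for Ly6a the T and B cells held 256 CPM in brain INJ against 91.5 in the monocytes. Of 9 patrolling monocyte genes, Fcgr4 was higher after injury in both tissues, and Nr4a1 and Spn were lower in the brain. Nr4a1 stood at 1594, 768, 1167 and 726 CPM. Of 22 myeloid transcription factors, 2 were higher and 3 lower in the brain, and 0 higher and 2 lower in the dura, to be read against the same shares. Of 9 antioxidant, heme and metal genes, Fth1 was higher in the brain and Mt1, a metallothionein, in the dura, and Hpgd was lower in both, with Mt1 at 90.7, 176, 101 and 208 CPM. Of 11 matrix, coagulation and repair genes 3 were higher in each tissue and 0 lower, beside 2.91% of all genes higher in the brain and 1.19% in the dura. Arg2, mitochondrial arginase, was past 2-fold higher after injury in both tissues at 10.4, 26.1, 16.6 and 33.8 CPM, and it was the member of its list of 4 to be so.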

How the data were processed

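CD45+ cells of brain and dura were processed by the authors as 4 libraries with a 10x Chromium 3′ kit. The submitters' processing notes name Cell Ranger 3.1.0, Seurat 3.1.0 and mm10. The deposited values are on a natural log scale, ln of 1 plus 10000 times the UMIs of a gene over those of its cell, and each gene of a library's file was seen in 3 cells or more. With the smallest value of a cell taken as 1 UMI, 100% of the values came out as whole UMIs within 1e-06, and all levels here were computed from those UMIs. The total was 49003977 UMIs in brain CT, 115154317 in brain INJ, 54749012 in dura CT and 55887697 in dura INJ. Only cells with above 1000 and below 6000 detected genes and a mitochondrial share of up to 7% entered. Kept cells were not filtered on doublets. The study's methods state that Scrublet was used. Its automatic call, rerun through scanpy 1.11.5, marked 0 to 3 barcodes per library, under 0.5%, so as an alternative the highest scores were left out at 0.8% per 1000 barcodes, which took 0 to 2 monocytes per library.

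UMIs were summed over the monocytes of a library, and genes with a mean of at least 20 CPM were compared as log2 ratios, with 2-fold as the call. Ratios have exact conditional intervals, levels exact Poisson intervals, shares Clopper-Pearson intervals and differences of ratios delta-method intervals, all at 95% and for counting error only. With 1 library per condition no test was run. A gene with no UMI was set to a floor of 3 UMIs in fitted ratios. Beside the 27 lists and the genes of the gate, each comparison named up to 8 genes per direction, and the difference of the injury ratios up to 6, with the largest change among genes with at least 50 UMIs and, in the higher library, at least 2 times the level of T and B cells. These were gated with Lyz2, Retnlg, Mpo and Top2a at 0, which gives a low gauge of free RNA. A wider set without the demand on Lyz2 was added after the data were seen. The monocytes, the lists and the genes were chosen with earlier results of these data known. Genes that fall outside this rule were chosen after their values were seen. Some listed genes are not reported here. Alternatives changed the gate, filters, depth, scaling, weight of cells, doublets and free RNA. The calculation was tested on simulated data. Python 3.11.15, numpy 2.4.6, scipy 1.17.1, pandas 2.3.3 and matplotlib 3.10.9 were used. Promoter windows are from RefSeq on GRCm38.p6, which shares its coordinates with mm10.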

Additional observations from a re-analysis of the deposited data

Results flagged for a closer look

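The genes below were past 2-fold in opposite directions after injury in the monocytes of brain and dura. Of the genes higher in the brain 4.14% were lower in the dura, beside 1.4% of all genes. Of those lower in the brain 0.935% were higher in the dura, near the 1.19% of all genes. With 1 library per condition none of these differences was tested against replicates, and no explanation is weighed. Each difference is the log2 ratio of INJ to CT in the brain minus that in the dura.

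Cxcl10 gave a difference of 4.48, interval 3.98 to 4.99, and 5.36 without the richest cell of each library. Vegfa, the vessel growth factor, gave 2.81, interval 2.17 to 3.46, with at most 13.9% of its molecules in 1 cell of any library. Cd9, a tetraspanin, stood at 27.2, 57.5, 15 and 6.76 CPM in brain CT, brain INJ, dura CT and dura INJ and gave a difference of 2.19, interval 1.11 to 3.26, while T and B cells held 35.4, 49, 24.3 and 9.68 CPM. Mtm1, a lipid phosphatase, went the other way, with 34.1, 16.4, 10.5 and 24.8 CPM and a difference of -2.27, interval -3.23 to -1.3.

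AA467197 stood at 1.73, 130.4, 14.4 and 2.25 CPM and gave a difference of 8.55, interval 6.45 to 10.64, the largest of the set. In dura CT 96.2% of its 26 UMIs came from 1 cell, and without the richest cell of each library the difference was 5.73. In Cd209a dendritic cells of the same libraries AA467197 stood at 63.5, 216, 30.8 and 275 CPM. Ccl5, a chemokine that T and NK cells make in quantity, stood at 12.7, 116, 64.9 and 2.25 CPM and gave a difference of 7.84, interval 6.35 to 9.34. In T and B cells Ccl5 stood at 1595, 4703, 64.3 and 316 CPM, and 1 cell held 68.4% of the dura CT molecules. The part of these cells in the Ccl5 result was not tested. Rrad, a small GTPase, was the further gene past 2-fold in opposite directions, at 11, 23, 35.5 and 14.6 CPM and a difference of 2.3, interval 1.31 to 3.3, below T and B cells in all 4 libraries.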

How the results depend on the processing

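No paired analysis was possible because each condition has 1 library and the labels carry no replicate numbers. Numbers of genes past 2-fold follow the order higher and lower for brain INJ over CT, dura INJ over CT, brain CT over dura CT, brain INJ over dura INJ, and brain minus dura, and were 151, 107, 62, 73, 45, 60, 114, 73, 153 and 72. They were 411, 427, 358, 418, 253, 468, 401, 496, 590 and 619 with cells thinned to 2000 UMIs, which by construction leaves fewer UMIs per gene. With a mean of at least 5 CPM they were 384, 349, 201, 299, 148, 274, 309, 314, 490 and 391, and with at least 1 UMI in each group 854, 922, 715, 714, 641, 748, 741, 865, 906 and 861, since lower genes then enter. With the level of T and B cells that hold no Lyz2 subtracted, a low gauge of free RNA, the first 8 were 227, 219, 284, 241, 295, 126, 320 and 180. With Retnlg below 1.5, an alternative chosen after seeing the data, 28 genes were higher in brain CT than in dura CT. Under the other alternatives these numbers stayed within 1.5 times of those first given.

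Shares of monocytes in brain CT, brain INJ, dura CT and dura INJ were 2.68%, 2.58%, 2.65% and 2.96% of all barcodes with no filter on cells, 2.51%, 1.87%, 2.55% and 2.70% with Ly6c2 at 2 or more, and 4.54%, 4.19%, 5.63% and 6.33% with Retnlg below 1.5. With Ly6c2 above 0 the share in brain INJ was 4.46%.

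The list medians (log2) below left the counting interval that is typical of the genes of the list. With Ly6c2 at 2 or more, the alarmin list in the dura stood at 0.86, MHC class II at -0.88 in the dura and 0.13 in the brain, and in the brain glycolysis and hypoxia at 0.60 and chemokines at 1.15. With Retnlg below 1.5, alarmins stood at 3.36 in the brain and 0.88 in the dura, MHC class II at -0.85 in the dura and 0.83 in the brain, and in the brain chemokines at 1.34 and maturation at 1.08. Thinned, MHC class II stood at -0.85 in the dura and 0.22 in the brain, and in the brain chemokines at 1.19 and maturation at 0.87, with heat shock at 1.07 for brain CT over dura CT. With a mean of 5 CPM the brain medians were 2.28 for chemokines and 1.08 for maturation, and with at least 1 UMI 2.18 and 1.08. With T and B cells subtracted, alarmins stood at 2.17 in the brain and 3.27 in the dura, glycolysis and hypoxia at 1.25, chemokines at 0.20 and immediate early genes at -1.92 in the brain, and heat shock at 0.42 for brain CT over dura CT. Without cells that carry a macrophage gene, alarmins stood at 0.78 in the dura and chemokines at 1.29 and maturation at 0.54 in the brain. As a mean over cells MHC class II stood at -0.80 in the dura and 0.35 in the brain. Without the richest cell of each gene, also chosen after seeing the data, MHC class II stood at 0.75 and chemokines at 0.72 in the brain. The cause of these shifts was not tested.

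Among single genes 1366 values stayed within their counting interval, 227 moved and 12 reversed. With T and B cells subtracted, Hspa1a stood at -0.10 and Hspa1b at -6.35 for brain CT over dura CT. C1qb, C1qc, Camp, Ccl5, Mif and Ngp stood at -0.39 in the brain, and Cd74, H2-Aa and H2-Eb1 at 0.022 in the dura, because both libraries fell to the floor of 3 UMIs. The difference of Gm1673 was 0.12 when thinned. Genes with few UMIs gain the most calls when the filter is lowered, so depth limits what can be said of genes under 20 CPM.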
